A study of Homo sapiens with 2 samples.

Results

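Proteasome genes were examined for intervals of an HA-RFX6 ChIP-seq peak list. The 50 genes were all protein-coding genes, of 20037 in RefSeq, whose symbol began with PSMA, PSMB, PSMC, PSMD, PSME, PSMF or PSMG. The rule used symbols only and no measured value, but earlier results of these data were known when the genes were chosen. The data came from MHCC-97H cells, an established human hepatocellular carcinoma (HCC) line, overexpressing HA-tagged RFX6, a transcription factor and a member of the regulatory factor X (RFX) proteins. The series held 1 ChIP library from these cells and 1 input library labelled MHCC-97H, input. Only the list of the ChIP library was analysed here, so there was no replicate and no control list, and how deeply it was sequenced is unknown. The list held 5019 distinct intervals on chromosomes 1 to 22 and X. All percentages of genes describe this list, and their Wilson intervals cover counting error only.

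The proteasome is the protease complex that degrades proteins marked with ubiquitin. Its barrel-shaped core particle is built of alpha rings, which control entry, and beta rings, which carry the cutting sites. A regulatory cap binds ubiquitin chains, removes them and unfolds the substrate with a ring of ATPases. Alternative caps, chaperones that assist assembly, and subunits induced by interferon in antigen presentation complete the family. Most subunits are needed by every dividing cell, liver cells included. RFX proteins bind the X-box, which contains a pair of short cores facing each other.

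Intervals at proteasome genes lay mostly around gene starts, and the sequences of 5 promoters show what they covered. These 5 were printed because PSMD2 had the highest score among the proteasome genes, PSMA4 and PSMD5 had most of the stretch covered, PSMD12 held an RFX core inside the interval, and PSMB9 shares its promoter region with TAP1. Each run gives the 250 bases before the first start that RefSeq lists for the gene (GRCh38.p14), read in the direction of the gene. Capitals mark the bases that an interval covered.
PSMD2, chr3:184298991-184299240, plus strand: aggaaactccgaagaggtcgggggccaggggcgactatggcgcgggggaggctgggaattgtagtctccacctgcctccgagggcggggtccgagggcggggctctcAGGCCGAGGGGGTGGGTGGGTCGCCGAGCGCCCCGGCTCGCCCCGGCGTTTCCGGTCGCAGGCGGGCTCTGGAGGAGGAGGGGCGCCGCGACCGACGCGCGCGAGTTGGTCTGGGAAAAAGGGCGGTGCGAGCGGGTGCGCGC
PSMA4, chr15:78540155-78540404, plus strand: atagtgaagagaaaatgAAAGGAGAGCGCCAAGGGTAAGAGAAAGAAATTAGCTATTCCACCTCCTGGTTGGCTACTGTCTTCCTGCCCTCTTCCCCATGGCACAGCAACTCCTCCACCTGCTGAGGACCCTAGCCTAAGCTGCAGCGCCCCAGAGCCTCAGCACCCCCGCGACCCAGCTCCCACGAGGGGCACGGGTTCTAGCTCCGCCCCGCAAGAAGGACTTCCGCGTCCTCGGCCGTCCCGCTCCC
PSMD5, chr9:120842923-120843172, minus strand: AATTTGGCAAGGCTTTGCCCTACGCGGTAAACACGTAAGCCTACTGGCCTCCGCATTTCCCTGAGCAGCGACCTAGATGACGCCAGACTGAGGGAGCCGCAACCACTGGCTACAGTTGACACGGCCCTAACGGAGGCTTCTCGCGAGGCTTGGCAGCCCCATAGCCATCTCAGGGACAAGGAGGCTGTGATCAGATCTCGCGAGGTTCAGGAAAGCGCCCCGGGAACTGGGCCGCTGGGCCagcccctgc
PSMD12, chr17:67366578-67366827, minus strand: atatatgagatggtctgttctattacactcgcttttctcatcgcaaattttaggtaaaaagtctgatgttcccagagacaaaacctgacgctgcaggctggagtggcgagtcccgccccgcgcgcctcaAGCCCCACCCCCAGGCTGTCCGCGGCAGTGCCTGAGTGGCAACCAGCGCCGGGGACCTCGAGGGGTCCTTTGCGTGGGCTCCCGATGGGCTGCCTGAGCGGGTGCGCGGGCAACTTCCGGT
PSMB9, chr6:32853942-32854191, plus strand: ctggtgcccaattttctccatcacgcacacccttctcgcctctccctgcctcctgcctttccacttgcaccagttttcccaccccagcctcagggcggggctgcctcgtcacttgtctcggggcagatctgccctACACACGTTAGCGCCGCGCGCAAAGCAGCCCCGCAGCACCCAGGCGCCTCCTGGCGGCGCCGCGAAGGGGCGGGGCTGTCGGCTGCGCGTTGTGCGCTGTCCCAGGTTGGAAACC

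Of these 250 bases, 143 were covered at PSMD2, 233 at PSMA4, 241 at PSMD5, 121 at PSMD12 and 115 at PSMB9. The G and C content of the printed stretches was lowest at PSMA4 and PSMD12, both at 60.8%, and highest at PSMD2, at 74.4%. They contained between 13 (PSMA4) and 33 (PSMD2) CpG dinucleotides. The remaining covered bases of PSMD2, PSMD12 and PSMB9 lay downstream of the start, since these intervals extended into the gene. The PSMA4 interval also crossed the start, but ended 3 bases past it.

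The first question was how many proteasome genes had an interval. An interval was placed by its midpoint and counted at a gene end when no more than 1 kb from either end of the gene. By this measure, 15 of 50 proteasome genes had an interval at an end (30%, 95% Wilson interval 19.1% to 43.8%). The same held for 3100 of all 20037 protein-coding genes, which was a background of 15.5%. A further gene, PSMA7, had an interval in the body only, compared with a background of 4.06% of protein-coding genes. The remaining 34 proteasome genes had no interval. No test was possible with 1 library, and genes are not replicates, so these shares are given as a description. Chromosomes differed in how many of their genes had an interval, and weighting the background by the chromosomes of the 50 genes raised it to 17.3%.

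**Figure D1:**
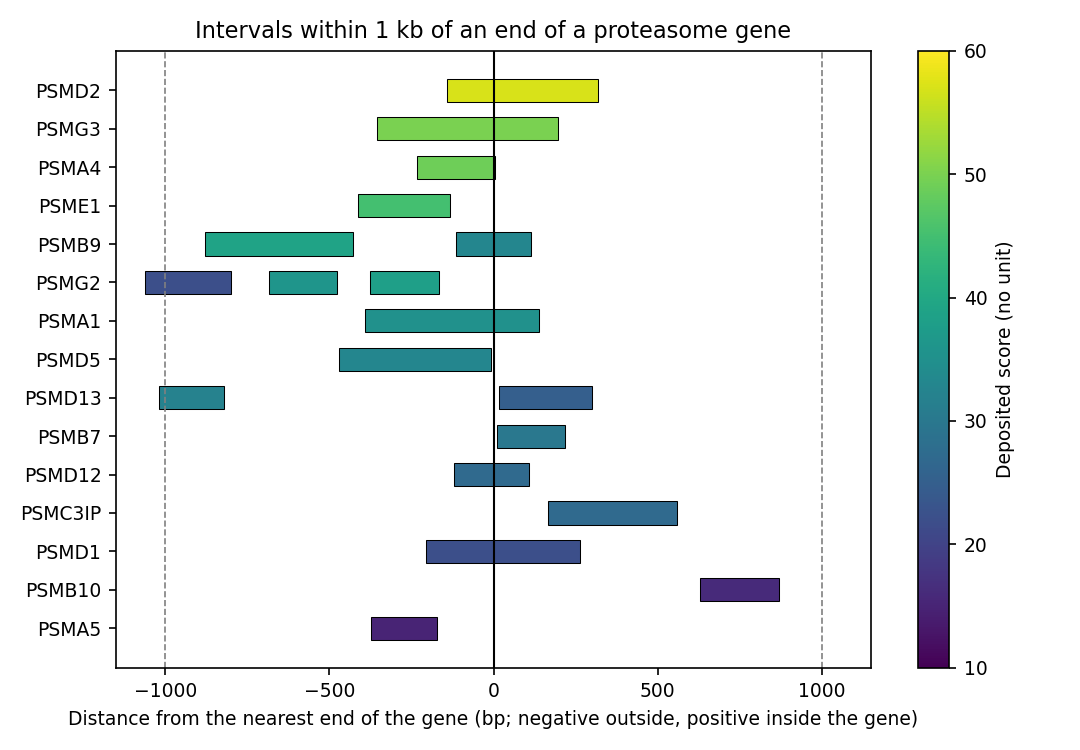
Intervals at the ends of 15 proteasome genes. Each bar is 1 interval drawn to scale by its distance in bp from the nearest gene end (0, solid line; negative values outside the gene), dashed lines mark 1 kb, colour gives the deposited score, and genes are sorted by their highest score. Bars of 7 genes cross the gene end, and PSMB10 is the gene whose interval lies deepest inside.

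When only gene starts were considered, the picture was similar. RefSeq listed starts for 44 of the 50 genes, and 12 of these had an interval within 1 kb of a start (27.3%, 16.3% to 41.8%), against 2581 of 15843 protein-coding genes (16.3%). Of the 19 intervals at proteasome gene ends, 17 belonged to genes with a listed start, and 16 of them were within 1 kb of it, 11 upstream and 5 downstream. The median distance was 271 bp, compared with 199 bp over all protein-coding genes. Over all protein-coding genes, 90.5% of the placements at ends of genes with a listed start were within 1 kb of it, 1201 upstream and 1452 downstream. The proteasome intervals thus sat near starts as in the whole list, and the difference in side was not tested.

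The roles of the genes were then compared. Among the 7 genes of the core alpha ring, PSMA1, PSMA4 and PSMA5 had an interval at an end, and PSMA7 had one in the body. Among the 7 genes of the constitutive beta ring, only PSMB7 had one. Of the 5 core subunits that replace constitutive alpha or beta subunits in immune or specialised cells, PSMB9 and PSMB10 had an interval. In the cap, none of the 6 ATPase genes PSMC1 to PSMC6 had an interval (0 of 6, Wilson interval up to 39.0%), whereas 4 of the 11 other cap subunits did, namely PSMD1, PSMD2, PSMD12 and PSMD13. The groups are small, their Wilson intervals overlap, and the difference between roles was not tested. Of the 7 assembly chaperones, PSMD5, PSMG2 and PSMG3 had an interval. Of the 5 activator and inhibitor genes, PSME1 had one. The remaining pair, PSMC3IP and PSME3IP1, match by symbol only, since their products interact with a proteasome protein but are not part of the complex. PSMC3IP, a meiotic recombination factor, had an interval, and PSME3IP1 had none. Without this pair, 14 of 48 genes had an interval at an end (29.2%, 18.2% to 43.2%).

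**Figure D2:**
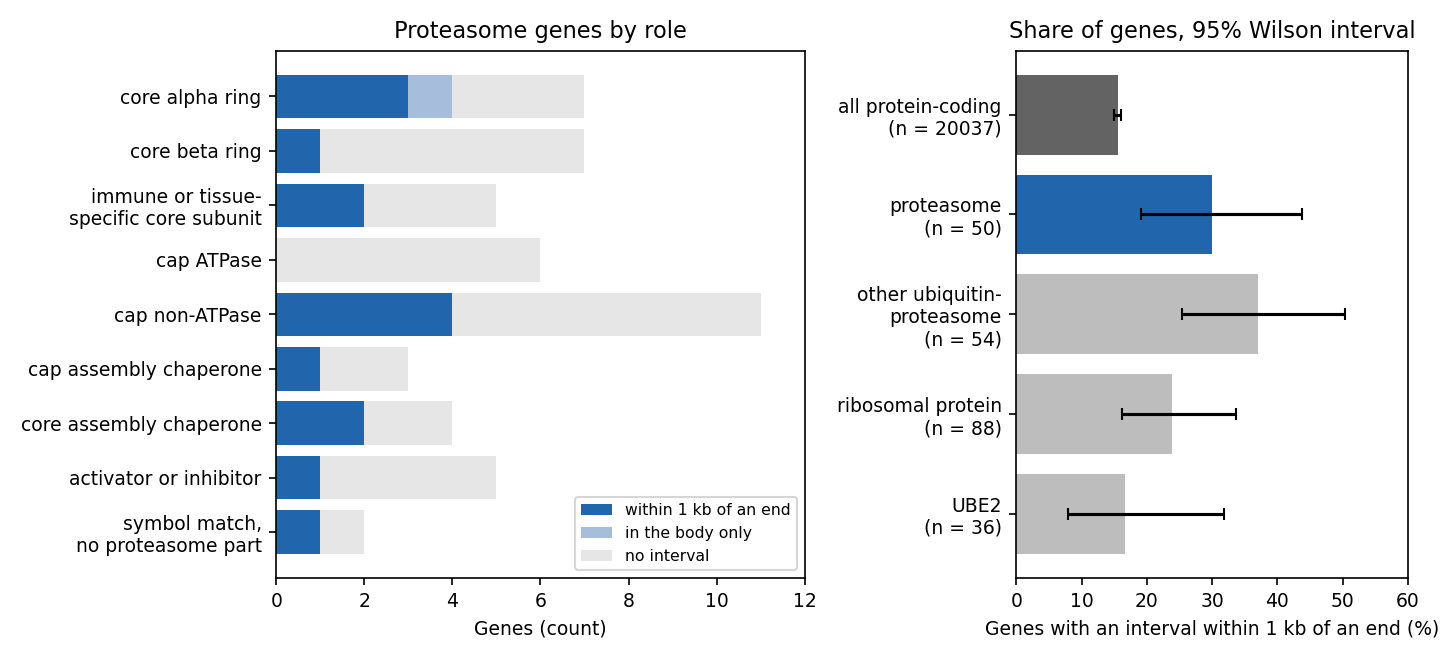
Proteasome genes with an interval, by role and beside other gene groups. Left, number of genes per role with an interval at an end, in the body only, or none. Right, percentage of genes with an interval at an end, with 95% Wilson intervals; the proteasome genes are at 30% and all protein-coding genes at 15.5%.

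The cap genes gave the interval with the highest score of the family. At PSMD2, which encodes the scaffold that receives ubiquitin shuttle proteins, an interval of 462 bp spanned the start (chr3:184299098-184299559). It was listed on 2 lines with scores of 57 and 21, and the higher value was at percentile 92.0 of the list. PSMD1 encodes the other large scaffold of the cap. Its interval of 472 bp (chr2:231056660-231057131) likewise spanned the start, but its score of 22 was at percentile 20. Thus intervals with a like position differed in their highest score, although the second line of PSMD2, at 21, was close to PSMD1. PSMD12 and PSMD13 encode subunits of the lid, the part of the cap that carries the deubiquitinase. The PSMD12 interval (chr17:67366471-67366698) had a score of 27 and its midpoint was 7 bp from the start. PSMD13 had 2 intervals on chromosome 11, on either side of its start. The inner one, from 236992 to 237274, had a score of 25 and was 157 bp downstream of the start. The outer one, from 235956 to 236155, had a score of 32 and was 921 bp upstream. SIRT3, a mitochondrial deacetylase gene, is read in the opposite direction from the same region, and its start was 202 bp from the inner interval and 876 bp from the outer one. The outer interval was therefore slightly closer to the start of SIRT3 than to that of PSMD13.

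Among the core subunits, PSMA4 had the highest score. Its interval (chr15:78540172-78540408) scored 49, at percentile 85.6, and its midpoint was 115 bp upstream of the start. At PSMA5 an interval of 202 bp (chr1:109426621-109426822) lay 273 bp upstream with a score of 15, the lowest of the 19. PSMA1 stood apart in position. Its interval (chr11:14643523-14644054, scores 35 and 22 on 2 lines) covered the far upstream end of the annotated gene, 123402 bp from the start that RefSeq lists for PSMA1. It was 16 bp from an end of PDE3B, a phosphodiesterase gene, and 126 bp from that of PSMA1, so PDE3B was the closer gene. PSMA7, the gene with a body interval only, carried a wide one of 804 bp (chr20:62140014-62140817) with a score of 17, at 2979 bp from the nearest end.

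PSMB7 encodes the subunit with trypsin-like activity, and PSMB10 replaces it in the immunoproteasome. Both had an interval inside the gene. At PSMB7 it scored 30 and was 114 bp from the gene end (chr9:124415226-124415431), and no start was listed for this gene. At PSMB10 it scored 16 on both of its lines and was 750 bp downstream of the start (chr16:67935980-67936221). PSMB9, another immunoproteasome subunit, had 2 intervals on chromosome 6. One, from 32854077 to 32854304 with a score of 33, had its midpoint 2 bp from the start of PSMB9. The other, from 32853314 to 32853764 with a score of 39, was 653 bp upstream of that start but 165 bp downstream of the start of TAP1, which encodes a peptide transporter of antigen presentation and is read in the opposite direction. Hence 1 interval lay at each start of this divergent pair. PSMB8, the remaining interferon-induced subunit, is a near neighbour, but the closest interval was 8860 bp away and was the one at TAP1. No interval was found at PSMB11 and PSMA8, the subunits specific to thymus and testis.

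Assembly chaperones and activators were next. PSMG2, which helps to build the alpha ring, had more intervals than any other proteasome gene. On chromosome 18, 3 of them lay upstream of its first listed start, at 932, 580 and 271 bp, with scores of 22, 36 and 38. They also lay within SPIRE1, whose nearest listed start was at least 1074 bp away. Another one (chr18:12702758-12702994, score 37) was inside the gene at its second listed start, 166 bp upstream, and was 99 bp upstream of the start of CEP76, a centrosomal protein gene. Of the 15 proteasome genes with an end interval, 3 had 2 or more (20%), compared with 15.1% of all protein-coding genes with one. PSMG3, another chaperone gene of the core, had an interval of 553 bp across its end (chr7:1569836-1570388), listed on 4 lines with scores from 17 to 50. It also lay at an end of PSMG3-AS1, an antisense transcript, and the list carries no strand. PSMD5, a chaperone of the cap base, had an interval 240 bp upstream of its start with a score of 33 (chr9:120842932-120843393). PSME1 encodes a subunit of the interferon-induced activator ring. Its interval (chr14:24135781-24136061) scored 45, at percentile 80.8, and was 273 bp upstream of the start. PSME2, its partner in the ring and its neighbour on the chromosome, had no interval of its own, the closest being the PSME1 interval at 7444 bp. Finally, the PSMC3IP interval scored 27 and was 261 bp downstream of a listed start (chr17:42577272-42577665).

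**Figure D3:**
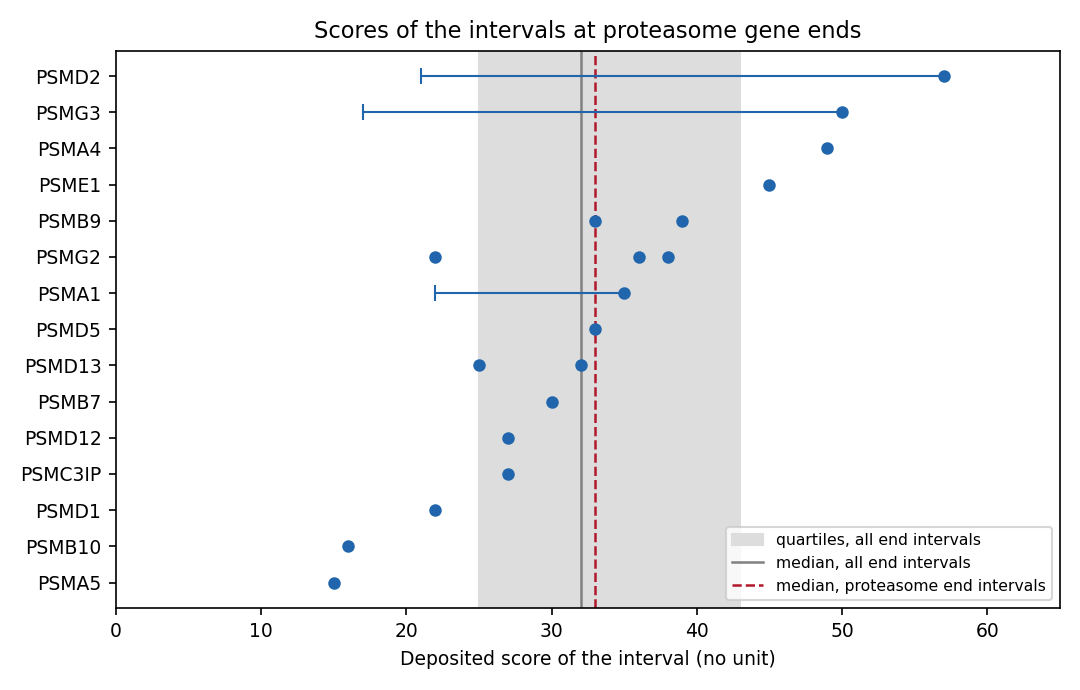
Scores of the 19 intervals at proteasome gene ends. Points show the highest score of an interval and ticks the lowest score where its lines differed; the grey band and line give the quartiles (25 and 43) and median (32) of all 3054 intervals at gene ends, and the dashed line gives the proteasome median of 33.

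In score and width the proteasome intervals resembled the other intervals at gene ends. The score, whose meaning is not stated, was used only for ranking. Over the 19 intervals it ranged from 15 to 57 with a median of 33, while all 3054 intervals at gene ends had a median of 32 and ranged from 13 to 126. A score of at least 30 was reached by 12 of 19 (63.2%) compared with 57.1%. The median width was 261 bp, compared with 282 bp. Most intervals, 15 of 19, were listed on 1 line. Intervals at ends of another protein-coding gene as well made up 5 of 19 (26.3%), compared with 553 of 3054 (18.1%). These were the 2 at PSMB9, the 2 at PSMD13 and the 1 at PSMA1, and they cannot be given to a single gene.

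Genes without an interval were then inspected. In the alpha ring these were PSMA2, PSMA3 and PSMA6, and in the beta ring PSMB1 to PSMB6. In the cap they were PSMC1 to PSMC6, PSMD3, PSMD4, PSMD6, PSMD7, PSMD8, PSMD11 and PSMD14, the last being the deubiquitinase. PSMD9, PSMD10, PSMG1 and PSMG4 among the chaperones also had none, nor did PSME2, PSME3, PSME4 and the inhibitor PSMF1. For 16 of the 34 genes the nearest interval was more than 100 kb from either end, for 13 it was between 10 and 100 kb, and for 5 it was closer than 10 kb. The last were PSMB1, PSMB8, PSMC3, PSMD11 and PSME2. PSMB1 lay just outside the limit, as its interval of score 33 was 1019 bp beyond the gene end. The intervals just inside the limit were those at 932 bp (PSMG2) and 921 bp (PSMD13), and both genes also had a closer one. PSMD6 was the farthest, at 5677798 bp. As the depth is unknown, absence of binding and too few reads cannot be told apart at these genes. No interval was found at the 53 annotated PSM pseudogenes, while the handling of reads that map to more than 1 copy is not stated.

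Other genes of the pathway were examined from a list of 54 ubiquitin and proteasome factors without a PSM symbol. An interval at an end was found for 20 of them (37.0%, 25.4% to 50.4%), compared with 15.5% of all protein-coding genes. The list was drawn up with earlier results of these data known, and the Wilson interval does not cover that choice. None had one in the body only, compared with 4.06% of all protein-coding genes. Among proteins that bind the proteasome, ADRM1, the ubiquitin receptor of the cap, had a score of 20, and USP14, a deubiquitinase, had a score of 45. UBE3C, a ubiquitin ligase, had 2 intervals with scores of 21 and 25, and the adaptor gene ECPAS had one of 39. By contrast, none was found at POMP, which matures the core, SEM1, UCHL5 or TXNL1. Of the shuttle factors, RAD23B (45 and 17) and UBQLN1 (13) had intervals. VCP, the ATPase that extracts ubiquitin-marked proteins, scored 56 and its cofactor NPLOC4 scored 52, although the NPLOC4 interval was also at an end of TSPAN10. It lay 59570 bp from the start listed for NPLOC4. Scores above that of PSMD2 were seen at the ligase genes SKP1 (76), CUL3 (72), NEDD4 (63) and FBXW11 (58). The other genes were BTRC, CUL5, MIDN, NFE2L2, RBX1, STUB1, VHL and ZFAND5. The MIDN interval lay 9585 bp downstream of the listed start. Of the transcription factors that drive proteasome genes under stress, NFE2L2 had 2 intervals (scores 29 and 35), whereas NFE2L1 had none.

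For scale, an interval at an end was found for 21 of 88 cytosolic ribosomal protein genes and close copies (23.9%, 16.2% to 33.7%) and for 6 of 36 UBE2 genes (16.7%, 7.87% to 31.9%), which encode ubiquitin conjugating enzymes. Both Wilson intervals overlapped that of the proteasome genes, and no difference between these groups was tested.

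Finally, the promoters were searched for short motifs in a window from 250 bases before to 50 bases after the first listed start, on both strands. No motif contained another, but matches of different motifs may share bases. The RFX core GTTGCC was present in 8 of 44 proteasome promoters (18.2%), compared with 12.6% of 15843 protein-coding promoters. Of the 44 promoters, 13 belonged to genes with an interval at either gene end, called promoters with an end interval here. An interval reached into the window at 10 of them, but not at PSMA1, PSMB10 and PSMC3IP. Among the 13, GTTGCC was present only at PSMD12, whose matches began 84 and 13 bases before the start, both within the capitals above. PSMA4 held this core at another of its listed starts. Among the 31 promoters without an end interval it was present in 7, and over all promoters of genes with one in 12.3%. The variant GTTACC was found in 0 of 44, compared with 5.92%. A pair of cores facing each other, with 0 to 4 bases between them, was found in 0 of 44 proteasome promoters and in 0.328% of all promoters. The absence of these letters refers to this window only.

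Motifs known from proteasome promoters were also counted. TGACNNNGC, the antioxidant element bound by NFE2L1 and NFE2L2, was held by 13 of 44 proteasome promoters (29.5%), compared with 14.3% of all promoters. Of those 13, PSMB9, PSMD1, PSMD5, PSMD12, PSME1 and PSMG2 had an end interval. By end interval, the element was present in 6 of 13 promoters with one and 7 of 31 without. Its match lay inside covered bases at PSMD1 and PSMD5, and outside them at PSMB9, PSMD12, PSME1 and PSMG2. Over all promoters of genes with an end interval its share was 16.2%, and the difference was not tested. CCGGAA, an ETS motif, was present in 20 of 44 (45.5%, compared with 22.9%), and CCAAT, the NF-Y box, in 21 of 44 (47.7%, compared with 36.4%). By end interval, CCAAT was present in 3 of 13 promoters with one and 18 of 31 without, and CCGGAA in 4 of 13 and 16 of 31, respectively. Over all protein-coding genes with an end interval, CCAAT was present in 36.6% of promoters and CCGGAA in 30.3%, so neither was below the share over all promoters there. The GC box GGGCGG was present in 30 of 44 (68.2%, compared with 58.5%). It was present in 11 of 13 promoters with an end interval, PSMA1 included, and 19 of 31 without. Over all promoters of genes with an end interval, the share with a GC box was 76.9%. AANATGGCG, a YY1 motif, was present in 2 of 44 (4.55%, compared with 4.81%) and GCGCANGCG, the motif of nuclear respiratory factor 1, in 5 of 44 (11.4%, compared with 11%). Base composition hardly separated the proteasome promoters with an end interval from those without. The median G and C content was 62.3% in the 13 promoters with an end interval, 61.0% in the 31 without and 62.7% over all protein-coding promoters, whereas it was 68.0% over all promoters of genes with an end interval.

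**Figure D4:**
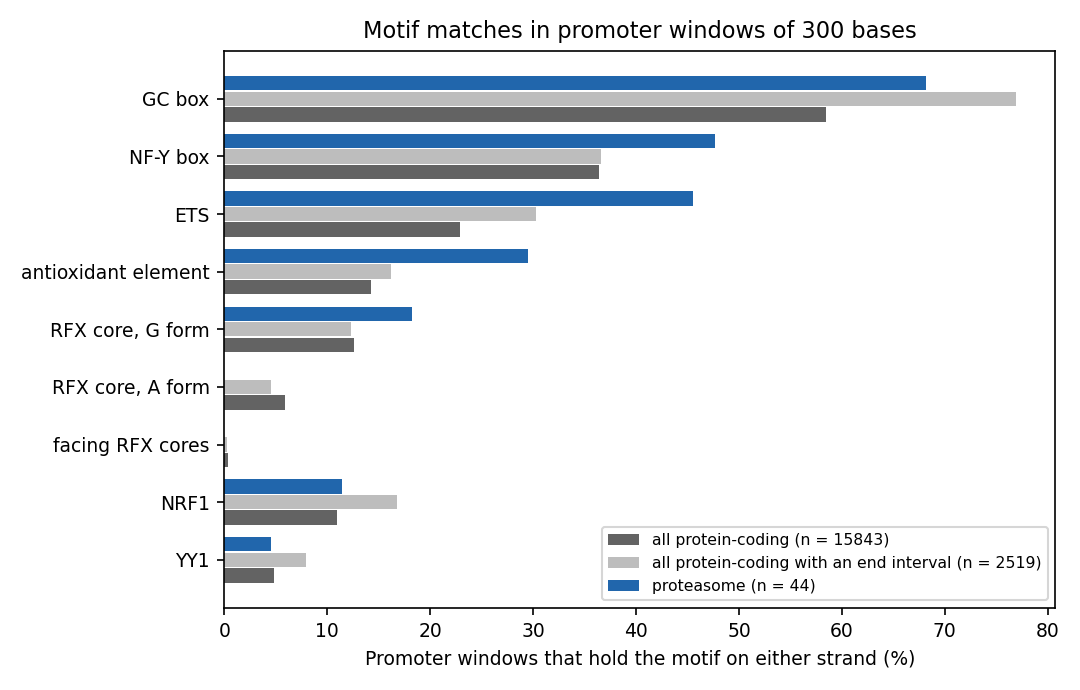
Motifs in promoter windows of 300 bases. Bars give the percentage of windows with at least 1 match on either strand for proteasome genes (n = 44), all protein-coding genes (n = 15843) and those with an interval at an end (n = 2519); the ETS motif and the antioxidant element are at 45.5% and 29.5% in proteasome genes and at 22.9% and 14.3% over all genes.

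A divergent coding partner was the last feature considered. Another protein-coding gene started on the opposite strand within 1 kb upstream of 9 of the 44 proteasome genes with a listed start (20.5%, compared with 12.3% of all). Of these 9, PSMB9 (with TAP1), PSMD13 (with SIRT3) and PSMG2 (with CEP76) had an end interval, while PSMA2 (with MRPL32), PSMC5 (with FTSJ3), PSMD9 (with HPD), PSMD10 (with ATG4A), PSME2 (with RNF31) and PSME4 (with ACYP2) had none. An end interval was thus present for 3 of 9 proteasome genes with a partner and 10 of 35 without, compared with 24.7% and 14.7% over all protein-coding genes. At PSMG2 the end intervals were at the first listed start, and the interval at the start facing CEP76 was the one counted in the body.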

How the data were processed

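ChIP-seq of MHCC-97H cells overexpressing HA-RFX6 was analysed from 1 peak list. The authors mapped the reads and ran MACS2 2.1.0.2, and they deposited chromosome, start, end, name and a whole-number score per peak. The aligner, the control and the meaning of the score are not given in the sources used here. The submitters' processing notes name GRCh37. However, 60.8% of midpoints lay within 1 kb of coding gene ends of the GRCh38.p14 RefSeq table (at least 50.0% on each chromosome), whereas shifting them by 20 kb to either side left 7.65% and 8.11%, so GRCh38 was used. Of 6214 lines, 1 with split digits was repaired, and repeated positions were counted once with their highest score. Deposited starts were read as 0-based. The score was used for ranks only. The input was not analysed here, and some genes of the pathway are not reported here.

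Promoter sequences and starts came from RefSeq. They were matched by symbol for 44 of 50 genes and 46 of the 54 pathway genes. The members, gene lists and motifs were chosen with earlier results of these data known, and the weighting by chromosome and the count without PSMC3IP and PSME3IP1 were chosen after seeing the data. Named genes were all members, pathway genes with an interval, and neighbours within 1 kb; pathway genes without one, SPIRE1, and the divergent partners were added after their values were seen. Shares have 95% Wilson intervals, and no p-value was computed. Gene placement was tested on simulated data. Alternatives were other score limits, windows of 500 bp, 2 kb and 5 kb, any overlap, every line, the nearest gene and starts only. Python 3.11.15, numpy 2.4.6, pandas 2.3.3, scipy 1.17.1 and matplotlib 3.10.9 were used.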

Additional observations from a re-analysis of the deposited data

How the results depend on the processing

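The count of 15 proteasome genes with an end interval ranged from 10, for scores of at least 30 (background 9.50%), to 19, within 5 kb (background 19.8%). At the higher score limit PSMA5, PSMB10, PSMC3IP, PSMD1 and PSMD12 were lost, and within 5 kb PSMA7, PSMB1, PSMC3 and PSMD11 were added. By nearest gene, PSMA1 was lost and 14 remained (background 13.4%). The pathway count of 20 of 54 genes ranged from 15 to 20. It was 15 of 54 for scores of at least 30 (background 9.50%) and 15 of 46 with starts only (background 16.3%). The median score of 33 ranged from 30 to 37. The count of body intervals, 1, became 0 at either score limit (20 and 30), 2 with a window of 500 bp (PSMA7 and PSMB10) and 0 within 5 kb. The share of all protein-coding genes with a body interval only is not given for these settings. No paired analysis was possible because the series has a single ChIP list, so no replicate could be left out either. Depth limits every count, since it is unknown.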
